A study of Homo sapiens with 42 samples.

Results

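Contacts between 3 viewpoints on chromosome 9 and the rest of the genome were described by chromosome, for chromosomes 1 to 8 and 10 to 21. Every listed position on these 20 chromosomes was taken, and each position was counted once per library. They gave 47852 library positions out of 325889 over all chromosomes, or 14.7%. The cells were K562, derived from chronic myeloid leukaemia, and carried a FUCCI cell-cycle reporter at the AAVS1 locus. An asynchronous culture was stained with Hoechst33342 and sorted into G1 and the successive S-phase fractions S1 to S6. All groups were this 1 line with no other treatment named. K562 is aneuploid, and no value below was divided by copy number. The 2 viewpoints called Proximal and Distal lie inside a fountain-like contact structure, and the viewpoint called Outside lies beyond it. In hg19 they were read at position 111624875 (Proximal), 111525048 (Distal) and 111110106 (Outside) of chromosome 9. Each of the 21 combinations of viewpoint and fraction had 2 libraries, 42 in all, and no label says whether the 2 came from separate cultures. The p-values therefore measure only how far libraries differ, and that may be a technical spread.

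Chromosome conformation capture joins DNA ends that were near each other in the fixed nucleus, so a position listed for a viewpoint marks a ligation with that viewpoint. Each interphase chromosome occupies its own territory, and most ligations stay on the viewpoint's own chromosome. Ligations with other chromosomes show which territories lie near, and in human nuclei small gene-rich chromosomes tend to sit centrally and gene-poor ones at the edge. In every such assay a share of them also comes from chance ligation, and that share was not measured here.

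All 42 libraries listed the same number of lines, so the depth before this equalisation is unknown. The 20 chromosomes held between 713 and 1592 distinct positions per library, and 96.2% of the 44733 different positions were found in 1 library only. The 183 positions found in 5 or more libraries made up 2.57% of library positions. Repeated lines differed by place: between 7.001% and 46.4% of lines on the 20 chromosomes repeated a position, against 39.3% to 74.5% on chromosome 9. Distinct positions were used throughout, and results by lines are named where given.

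Contacts were not spread evenly by chromosome length. Chromosomes 3 and 4 were under-represented from all 3 viewpoints in every library. By length, chromosomes 13 and 14 were under-represented in most libraries, and chromosomes 6 and 7 were over-represented from all 3 viewpoints. With length counted as the 1 Mb bins that held a position, chromosome 14 lost its calls from all 3 viewpoints. Chromosome 13 lost its call from Outside, and chromosomes 6 and 7 theirs from Proximal. By length, chromosome 5 was lower from Proximal and higher from Outside (log2 -0.12 and 0.11). The small gene-rich chromosomes 16, 19 and 20 passed the test as over-represented from Proximal and Distal only. For chromosome 20 the log2 ratio was much the same from Distal and Outside, at 0.20 and 0.17. Differences between viewpoints are tested further below, and chromosome 20 was not called there (adjusted permutation p = 0.28). Length was taken as the highest listed position of a chromosome, and the log2 ratio of a chromosome's share of positions to its share of length was tested against 0 over the 14 libraries of a viewpoint (exact sign-flip permutation test, two-sided, Benjamini-Hochberg over 60 tests). At an adjusted p below 0.05, 7 of 20 chromosomes were higher (35%) and 6 lower (30%) from Proximal, 6 higher (30%) and 5 lower (25%) from Distal, and 5 higher (25%) and 5 lower (25%) from Outside.

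**Figure D1:**
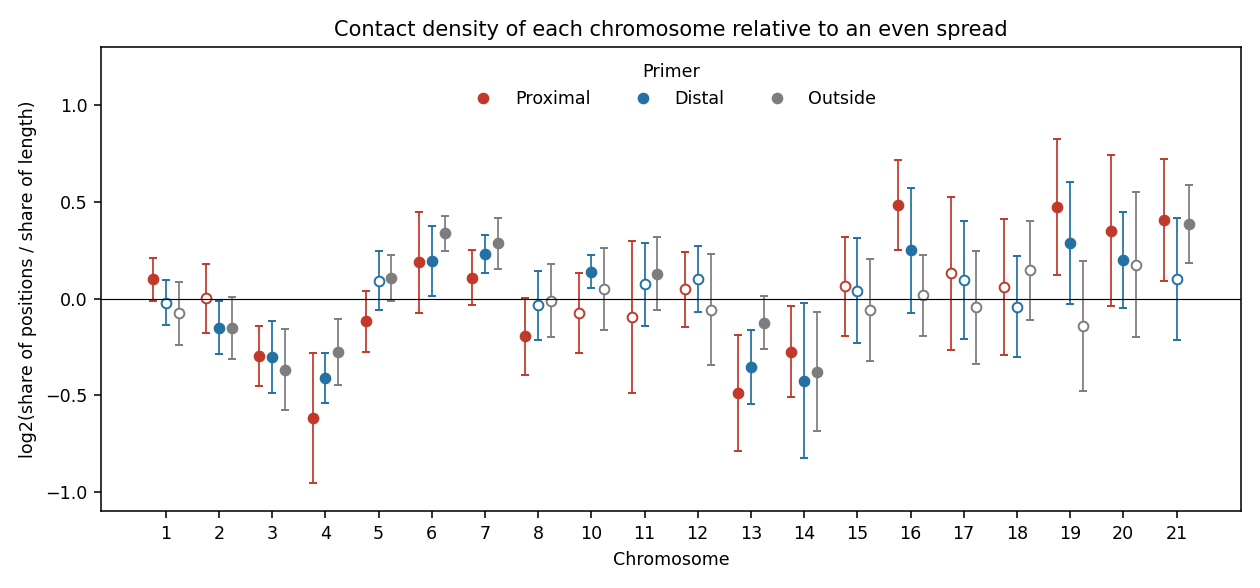
Mean log2 ratio of each chromosome's share of positions to its share of length (vertical axis) by chromosome (horizontal axis), with the SD over 14 libraries as bars. Filled points passed the exact sign-flip permutation test after adjustment and open points did not. Chromosomes 3, 4, 13 and 14 lie below 0 from all 3 viewpoints, while chromosomes 16 and 19 lie highest from Proximal and at 0.02 and -0.14 from Outside.

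Chromosome 4, a long gene-poor chromosome, was the most depleted from Proximal and the second most from Distal. Its share of the positions on the 20 chromosomes ran from 2.81% over a median of 4.74% to 6.69% from Proximal, from 4.60% over 5.404% to 6.31% from Distal, and from 4.49% over 5.94% to 6.82% from Outside. The ratio of its share to its share of length was 0.652, 0.752 and 0.826 in that order, and 0 of 14 libraries lay above an even spread from any viewpoint (adjusted p = 0.00081 for each, exact sign-flip permutation test). Chromosome 3 had ratios of 0.815, 0.811 and 0.775, again with 0 of 14 libraries above an even spread.

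Chromosomes 13 and 14 carry their short arms as satellite and ribosomal repeats, and no position was listed there. The lowest position was 19117195 on chromosome 13 and 19001277 on chromosome 14. Chromosome 13 had log2 ratios of -0.49 ± 0.30 (SD, n = 14) from Proximal, -0.35 ± 0.19 from Distal and -0.12 ± 0.14 from Outside. Chromosome 14 had -0.27 ± 0.23, -0.42 ± 0.40 and -0.38 ± 0.31. With length counted as the number of 1 Mb bins that held a position, chromosome 14 was not called from any viewpoint (adjusted p = 0.342, 0.101 and 0.0961), and chromosome 13 from Outside turned to 0.06 on the log2 scale (adjusted p = 0.201). Over the acrocentric chromosomes 13, 14, 15 and 21 the median log2 ratio was -0.11, -0.16 and -0.09 by length and 0.12, 0.06 and 0.12 by occupied bins, so no direction is given for that list. Within it, chromosome 15 was called from no viewpoint by length (log2 0.06, 0.04 and -0.06). By occupied bins it was higher from all 3, at 0.30, 0.28 and 0.18 (exact sign-flip permutation test, adjusted p = 0.0012, 0.0085 and 0.047).

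On the over-represented side, chromosome 7 had log2 ratios of 0.11 ± 0.14 (SD, n = 14), 0.23 ± 0.10 and 0.29 ± 0.13 from Proximal, Distal and Outside, and lay above an even spread in 10, 14 and 13 of 14 libraries. Chromosome 6 had 0.19 ± 0.26, 0.19 ± 0.18 and 0.34 ± 0.09, above in 10, 12 and 14 libraries. From Proximal neither was called by occupied bins (adjusted p = 0.244 for chromosome 7 and 0.135 for chromosome 6), nor chromosome 7 by lines, while from Distal and Outside both were called by occupied bins. Chromosome 21, the shortest counted, had 0.41 ± 0.32, 0.10 ± 0.32 and 0.39 ± 0.20, and was called from Proximal and Outside. By occupied bins it was called from all 3 viewpoints, with the highest ratios of all 20 chromosomes, at 0.68, 0.38 and 0.66 on the log2 scale.

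Chromosome 16 stood at 0.49 ± 0.23 (SD, n = 14) on the log2 scale from Proximal, with 14 of 14 libraries above an even spread. From Distal it stood at 0.25 ± 0.32 with 12 libraries above, and from Outside at 0.02 ± 0.21 with 9 above (adjusted p = 0.00081, 0.029 and 0.794). Chromosome 19, the most gene-dense human chromosome, stood at 0.47 ± 0.35, 0.29 ± 0.32 and -0.14 ± 0.33 (adjusted p = 0.0014, 0.011 and 0.211). Chromosome 20 stood at 0.35 ± 0.39, 0.20 ± 0.25 and 0.17 ± 0.37, with 12, 12 and 11 libraries above (exact sign-flip permutation test, adjusted p = 0.016, 0.023 and 0.162). Of the 4 small gene-rich chromosomes 16, 17, 19 and 20, 3 were higher from Proximal, 3 from Distal and 0 from Outside (beside 35%, 30% and 25% of all 20). Chromosome 17 was called from none. The median log2 ratio of this list was 0.41, 0.22 and -0.01, beside 0.05, 0.08 and -0.03 over all 20 chromosomes. Of the 4 gene-poor chromosomes 4, 13, 18 and 21, 2 were lower from each viewpoint (beside 30%, 25% and 25% of all 20). From Proximal and from Outside 1 was higher, chromosome 21 (beside 35% and 25% of all 20). The medians were -0.21, -0.20 and 0.01, and by occupied bins 1 of the 4 was lower from Outside.

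Over the 20 chromosomes the log2 ratios of 2 viewpoints had a Pearson correlation of 0.84 for Proximal and Distal, 0.55 for Proximal and Outside, and 0.71 for Distal and Outside. Correlations with chromosome length were -0.46, -0.35 and -0.29. These describe 20 points that share the length estimate. Between viewpoints they also share the copy number of K562, the density of restriction sites and the mappability of the genome, none of which was modelled.

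Taken over all their libraries, the viewpoints did not see the other chromosomes in the same proportions. A permutation F test over the 42 libraries called 10 of 20 chromosomes (50%): 1, 2, 4, 5, 7, 10, 13, 16, 19 and 21 (100000 resamples, Benjamini-Hochberg over 20). Among them, the mean share of chromosomes 1, 2, 16, 19 and 21 was highest from Proximal, and that of chromosomes 4, 5, 7 and 13 was lowest from Proximal and highest from Outside. By lines 13 were called, with chromosomes 6, 8 and 17 in addition (adjusted permutation p = 0.0362, 0.0293 and 0.0293). The p-values of this test cover the 3 viewpoints together, and single pairs of viewpoints are given as values. Single libraries of 2 viewpoints differed little more than replicates did. At the same fraction and replicate number, the median chi-square per degree of freedom was 1.44 (Proximal and Distal), 1.51 (Proximal and Outside) and 1.25 (Distal and Outside). Between the 2 replicates of a group it was 1.05 for Proximal, 1.17 for Distal and 1.42 for Outside. With all libraries of a viewpoint pooled, it was 3.76 for Proximal and Distal, 8.73 for Proximal and Outside and 3.91 for Distal and Outside. Where shares differ this value grows with the number of positions, so a small difference can be missed between single libraries.

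Chromosome 16 took 4.76% ± 0.77 (SD, n = 14) of the positions from Proximal, 4.08% ± 0.81 from Distal and 3.43% ± 0.49 from Outside. At the same fraction and replicate number, Proximal was above Outside in 14 of 14 pairs of libraries, by 1.39 times (adjusted permutation p = 0.0018). Chromosome 19 took 3.14% ± 0.82, 2.74% ± 0.63 and 2.04% ± 0.51, which is 1.54 times as much from Proximal as from Outside, with 12 of 14 pairs in that direction (adjusted permutation p = 0.0018). For both chromosomes Distal lay between the other viewpoints, and the ranges of libraries overlapped.

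The reverse order held for chromosomes 4 and 13. Chromosome 13 took 3.11% ± 0.66 (SD, n = 14) from Proximal, 3.38% ± 0.47 from Distal and 3.95% ± 0.38 from Outside, and Proximal was above Outside in 1 of 14 pairs (ratio 0.789, adjusted permutation p = 0.0022). Chromosome 4 took 4.75% ± 1.06, 5.36% ± 0.48 and 5.91% ± 0.68 (ratio 0.804, adjusted permutation p = 0.0054). Chromosome 5 took 6.24% ± 0.67 from Proximal against 7.21% ± 0.73 from Distal and 7.27% ± 0.60 from Outside (adjusted permutation p = 0.0018), so there Distal lay beside Outside.

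Chromosome 1, the longest, took 9.97% ± 0.75 (SD, n = 14), 9.18% ± 0.73 and 8.85% ± 0.96 (adjusted permutation p = 0.0082). Chromosome 10 took the least from Proximal, at 4.83% ± 0.64 against 5.56% ± 0.33 from Distal and 5.27% ± 0.76 from Outside. Chromosome 21 took the least from Distal, at 1.96% ± 0.40 against 2.43% ± 0.56 and 2.36% ± 0.33. The calls of chromosomes 2 and 10 were lost when positions found in 5 or more libraries were left out (adjusted permutation p = 0.124 and 0.0539) and when each 10 kb stretch was counted once per library (0.321 and 0.0804). The call of chromosome 2 was also lost with a replicate block (0.0581) and without Proximal G1 replicate 1, S1 replicate 1, S3 replicate 1, S4 replicate 1, S5 replicate 1 or S5 replicate 2 or Distal S5 replicate 1. That of chromosome 10 was lost without Proximal G1 replicate 1, and that of chromosome 21 without Distal S3 replicate 1, S5 replicate 1 or S5 replicate 2 (adjusted permutation p = 0.0512 to 0.0881 over these libraries).

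Summed over the 4 small gene-rich chromosomes, a library's share ran from 11.1% over a median of 13.99% to 18.8% from Proximal. From Distal it ran from 10.9% over 12.6% to 15.4%, and from Outside from 9.38% over 11.2% to 13.3%. The gene-poor list ran from 12.2% over 13.1% to 16.4%, from 12.04% over 13.6% to 14.5%, and from 13.6% over 15.6% to 16.5%. The median of the gene-rich list was thus highest from Proximal and that of the gene-poor list highest from Outside, and the libraries of the 3 viewpoints overlapped in both lists. Members did not all follow. Of the gene-rich list 2 of 4 were called between viewpoints, chromosomes 16 and 19, and of the gene-poor list 3 of 4, beside 50% of all 20. Gene-poor chromosome 21 was highest from Proximal, and chromosome 18 was not called (adjusted permutation p = 0.28).

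**Figure D2:**
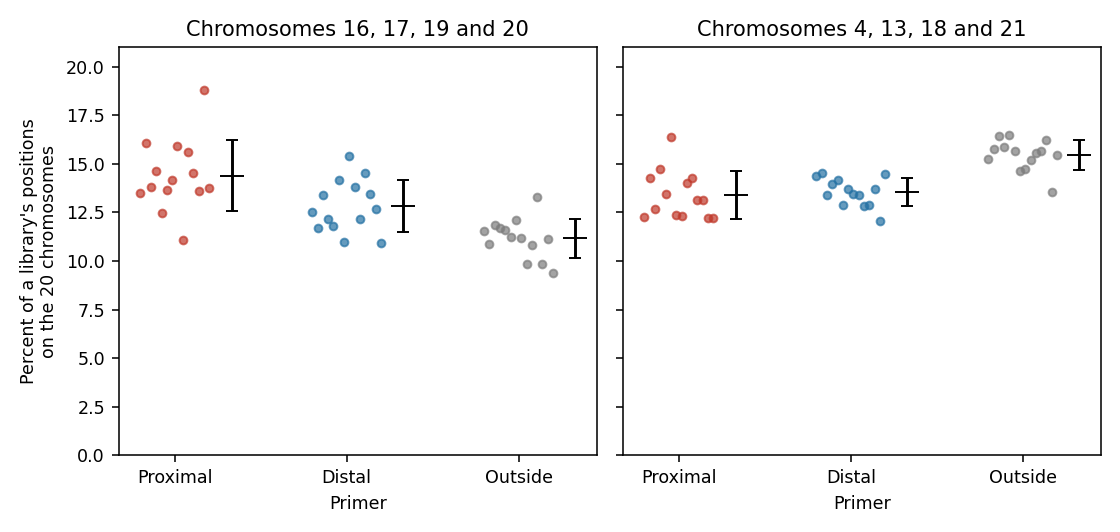
Percent of a library's positions on the 20 chromosomes (vertical axis) that lay on chromosomes 16, 17, 19 and 20 or on chromosomes 4, 13, 18 and 21, by viewpoint (horizontal axis). Points are the 14 libraries and the bars beside them the mean and SD. The gene-rich mean goes from 14.4% (Proximal) over 12.8% to 11.2% (Outside), and the gene-poor mean from 13.4% over 13.6% to 15.5%.

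Within chromosomes, contacts were counted in bins of 5 Mb. Bins held 2.20 positions per library on average, and 507 bins were tested for preference over the mean bin (limma on log2 of scaled positions + 1, adjusted over the bins of a viewpoint). From Proximal 35 bins were higher (6.9%) and 31 lower (6.11%), from Distal 41 higher (8.09%) and 25 lower (4.93%), and from Outside 59 higher (11.6%) and 36 lower (7.1%). Of the 507 bins, 13 were higher from all 3 viewpoints (2.56%) and 0 were lower from all 3 (0%), although 139 bins lay below 0 from each. Copy number, restriction site density and mappability were not modelled for bins either, and the 3 viewpoints share them. The 13 bins lay on chromosomes 2, 6, 7, 15, 16, 18 and 21, with 3 each on chromosomes 7 and 16 and 2 each on chromosomes 15 and 21. A filter at a mean of 2 positions left 1 of the 13 called among 296 bins, and under 7 other settings between 11 and 13 were called again. The excess was measured from the mean of the bins kept. That filter dropped the sparser bins, so its count does not test the same excess. For chr16:75000001-80000000 from Distal, the log2 excess was 0.71 in the main setting and 0.51 with that filter. The count of 0 lower bins became 7 without a filter, 2 by lines and 1 without a variance trend.

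The first 5 Mb of chromosome 18 (chr18:1-5000000) was the most preferred bin over the mean of the viewpoints. A library held from 1 over a median of 4 to 12 of its positions from Proximal, from 1 over 5.5 to 11 from Distal, and from 2 over 7 to 9 from Outside. The log2 excess over the mean bin was 1.18, 1.06 and 1.27. A single stretch, chr18:100001-110000, held 79 of the bin's 241 library positions, in 37 libraries. With each 10 kb stretch counted once per library, the excess was 1.00, 0.79 and 0.98 and the bin was called from each viewpoint (limma, adjusted p = 1.2e-07, 9.3e-05 and 9.2e-09).

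The bin chr2:30000001-35000000 held from 2 over a median of 7.5 to 13 positions per library from Proximal, from 2 over 3.5 to 6 from Distal and from 1 over 3 to 7 from Outside. It was higher from Proximal than from Distal by 1.19 ± 0.24 (SE) and than from Outside by 1.37 ± 0.24 on the log2(value + 1) scale, the largest difference called (limma, adjusted p = 0.000448 and 8.25e-06). In it, the stretch chr2:33140001-33150000 held 123 of 210 library positions: 78 from Proximal, in 14 of 14 libraries, 20 from Distal in 11 and 25 from Outside in 11. With each stretch counted once per library, the log2 difference was 0.37 from Distal and 0.66 from Outside (limma, adjusted p = 0.652 and 0.192), and the bin was called as preferred from Proximal alone (log2 0.77, adjusted p = 0.00031). By lines the difference from Distal did not pass either (0.145), and the preference from Outside was lost without any of 9 single libraries, with adjusted p up to 0.111.

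The other leading bins were less concentrated. On chromosome 21, the bins from 30 to 35 Mb and from 35 to 40 Mb were higher by 0.83, 0.75 and 0.92 and by 1.11, 0.72 and 0.73 on the log2 scale from Proximal, Distal and Outside. On chromosome 16, the bins from 75 to 80 Mb and from 80 to 85 Mb were higher by 0.97, 0.71 and 0.95 and by 0.92, 0.80 and 0.62. On chromosome 7, the bins from 120 to 125 Mb, from 145 to 150 Mb and from 150 to 155 Mb were higher by at least 0.56 from every viewpoint. The remaining bin named, chr15:85000001-90000000, was higher by 0.80, 0.52 and 0.83. In these 8 bins the densest 10 kb stretch held between 2.30% and 6.67% of the positions of all viewpoints, and all 8 were called from each viewpoint with each stretch counted once (limma). From Proximal, 9 of 43 positions of the chromosome 7 bin from 145 Mb lay in its densest stretch, and that call was lost without recurrent positions (limma, adjusted p = 0.121). The Distal call of the chromosome 15 bin was lost without Distal G1 replicate 1, S1 replicate 1 or 2, S2 replicate 2, S4 replicate 1, S5 replicate 1 or S6 replicate 1 or 2 (limma, adjusted p = 0.0664 to 0.146), without a variance trend (0.0868) and with a pseudocount of 0.5 (0.0725). On chromosome 7, the Distal call from 120 Mb was lost without Distal S2 replicate 2, the Distal call from 145 Mb without Distal S1 replicate 1 and the Proximal call from 150 Mb without Proximal S3 replicate 2 (limma, adjusted p = 0.0531, 0.0555 and 0.0534).

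Of the 19 first or last bins of a chromosome that were tested, 1 was higher from all 3 viewpoints, the chromosome 18 bin above, beside 13 of all 507 (2.56%), and their median log2 value was 0.04 beside -0.01 over all bins tested. The bin of chromosome 19 from 55 to 58.9 Mb, which holds the AAVS1 locus of the knock-in, was shorter than the 4 Mb required and was not tested for preference. It held 1.77 positions per 1000 from Proximal, 1.86 from Distal and 1.52 from Outside, and the differences between viewpoints did not pass the test (limma, adjusted p of at least 0.858).

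Single bins were then compared between viewpoints. Of 512 bins, 1 was higher (0.195%) and 0 lower (0%) from Proximal than from Distal. Against Outside, 3 were higher (0.586%) and 2 lower (0.391%) from Proximal, and 2 were higher (0.391%) and 1 lower (0.195%) from Distal. At an unadjusted p below 0.05 there were 47 bins between Proximal and Distal, 89 between Proximal and Outside and 47 between Distal and Outside (limma). Beside the chromosome 2 bin, those higher from Proximal than from Outside were chr19:35000001-40000000 (log2 1.17 ± 0.28 SE, adjusted p = 0.0082, limma) and chr20:45000001-50000000 (1.12 ± 0.30, adjusted p = 0.028). Those lower were chr4:120000001-125000000 (-1.04 ± 0.29, adjusted p = 0.039) and chr6:125000001-130000000 (-1.05 ± 0.30, adjusted p = 0.039).

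From Distal against Outside, chr16:20000001-25000000 was higher by 1.12 ± 0.29 (SE, log2) and chr15:40000001-45000000 by 1.14 ± 0.30 (adjusted p = 0.029 for both, limma). The bin chr13:90000001-95000000 was lower by 0.94 from Distal (limma, adjusted p = 0.036, and 0.222 by lines). It held from 1 over a median of 7.5 to 13 positions per library from Outside, 107 in all, against 45 from Distal and 42 from Proximal. Proximal libraries held fewer positions, and per 1000 positions pooled over libraries the bin held 6.01 from Outside, 2.54 from Distal and 3.41 from Proximal. Its difference between Proximal and Outside was not called. The positions of this bin from all viewpoints were scattered over 138 stretches of 10 kb, the densest of which held 5. Each of the 8 bins lost at least 1 of its calls between viewpoints under some setting, among them counting stretches once, a quasi-Poisson model, another scaling or leaving out recurrent positions, and all but the chromosome 2 bin lost it without some single library (the chromosome 19 bin without Outside S4 replicate 2 only). Over a chromosome's bins, the median log2 difference between Proximal and Outside was highest on chromosomes 19 and 16, at 0.39 and 0.37, and lowest on chromosomes 5, 13 and 4, at -0.34, -0.32 and -0.31.

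**Figure D3:**
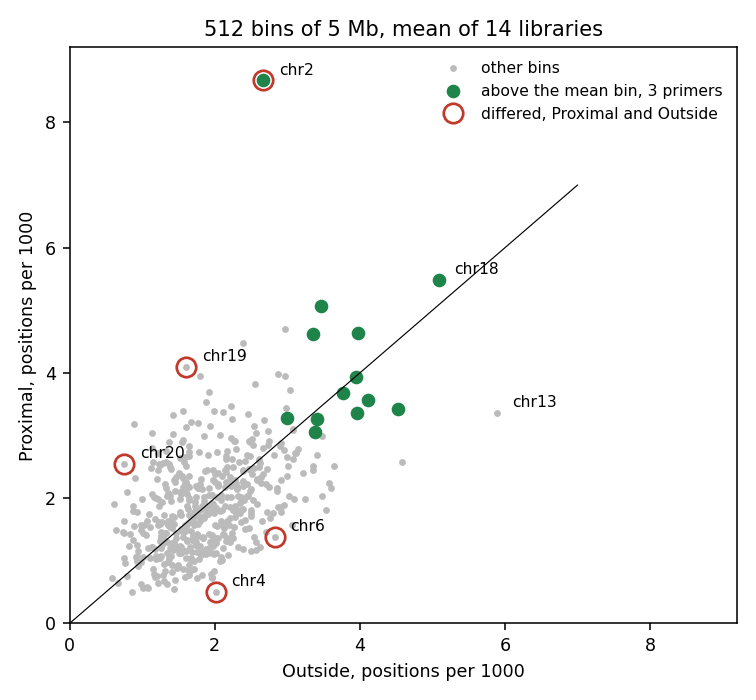
Mean positions per 1000 in each of 512 bins of 5 Mb from Outside (horizontal axis) and Proximal (vertical axis), each over 14 libraries. Green bins were above the mean bin from all 3 viewpoints and red rings mark the 5 bins that differed between Proximal and Outside by limma. The chromosome 2 bin lies at 8.67 from Proximal and 2.67 from Outside, and the chromosome 13 bin at 3.36 and 5.89.

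Across the cell cycle, the share of a library's distinct positions on the 20 chromosomes was lower late in S phase than early in S phase from all 3 viewpoints. From Proximal it was 16.3% ± 0.18 (SD, n = 2) in G1, and the means of the 2 libraries were 15.8%, 15.2%, 14.6%, 13.7%, 14.3% and 12.9% in S1 to S6. From Distal it was 14.7% ± 0.068 in G1 and 15.4%, 13.9%, 12.7%, 12.1%, 11.995% and 11.2%. From Outside it was 17.6% ± 0.90 in G1 and 19.04%, 17.5%, 16.7%, 15.3%, 15.4% and 14.8%. All 12 S libraries from Proximal lay below both G1 libraries, as did 10 of 12 from Distal and 9 of 12 from Outside.

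All S fractions together did not pass the test against G1. The S mean was 0.883 times that of G1 from Proximal, 0.878 times from Distal and 0.936 times from Outside (adjusted p = 0.0989, 0.33 and 0.429, two-sided exact permutation test with a smallest possible p of 0.011). The 7 fractions differed from Proximal and Outside by a permutation F test (adjusted p = 0.0387 and 0.039) and did not pass it from Distal (adjusted p = 0.0916). By lines in place of distinct positions, the Proximal share was 9.27% ± 0.16 (SD, n = 2) in G1 and 7.83% ± 0.59 (n = 12) in S, which passed (adjusted exact permutation p = 0.033).

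S4 to S6 were then set against S1 to S3, a contrast chosen after these values had been seen. The share fell from 15.2% ± 0.78 (SD, n = 6) to 13.7% ± 0.84 from Proximal, from 14.003% ± 1.696 to 11.8% ± 1.08 from Distal, and from 17.7% ± 1.29 to 15.2% ± 0.78 from Outside. The adjusted p was 0.0195, 0.0195 and 0.0065 (exact permutation test, two-sided). As the split was taken from these same values, these p-values are no independent test of it. From Outside the late libraries, at 14.4% to 16.37%, lay below the early ones, at 16.43% to 19.4%, and from Proximal and Distal the groups overlapped.

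The direction of the difference between S and G1 depended on what the contacts were counted against. Among positions more than 2 Mb from the viewpoint, the 20 chromosomes held 36.3% ± 0.60 (SD, n = 2) in G1 and 43.0% ± 2.51 (n = 12) in S from Proximal. From Distal they held 33.5% ± 0.27 and 42.1% ± 3.36, and from Outside 38.5% ± 2.07 and 46.7% ± 2.97. The adjusted p was 0.011 for each (exact permutation test), and no S library lay below either G1 library. Against this denominator S4 to S6 did not pass the test against S1 to S3 (adjusted exact permutation p = 0.771, 0.771 and 0.253), nor did they from Proximal and Distal with each 10 kb stretch counted once (0.162 for both).

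**Figure D4:**
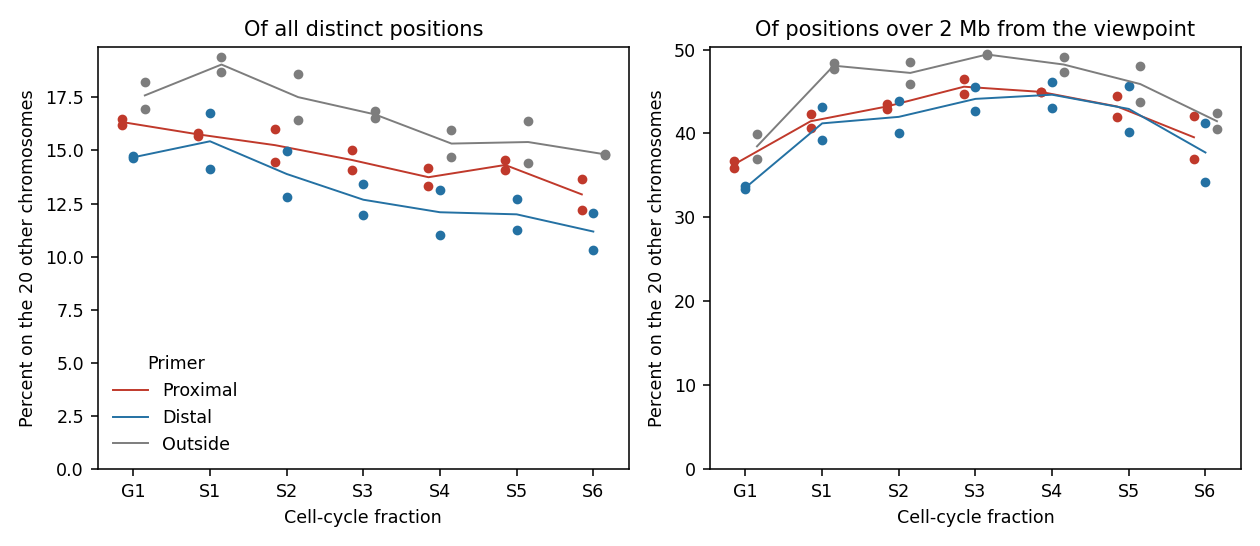
Percent of positions on the 20 chromosomes (vertical axes) by cell-cycle fraction (horizontal axes), of all distinct positions on the left and of positions over 2 Mb from the viewpoint on the right. Points are libraries, 2 per group, and lines join their means. On the left the Outside mean goes from 17.6% in G1 over 19.04% in S1 to 14.8% in S6. On the right all S libraries lie above the G1 libraries of their viewpoint.

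No chromosome was shown to depart from the common change. As a share of the library, S over G1 was below 1 for 14 of 20 chromosomes from Proximal, 18 from Distal and 16 from Outside, with medians of 0.919, 0.889 and 0.942. The lowest value was that of chromosome 11 from Proximal, at 0.64, and the highest that of chromosome 12 from Outside, at 1.22. Neither passed the test, and no chromosome did from any viewpoint (0 of 20, 0%, exact permutation test, with 3, 2 and 0 chromosomes at an unadjusted p below 0.05). The smallest exact p with 2 G1 libraries is 0.011, so 14 of the 60 tests would have had to reach it for any to pass, and the count of 0 does not show that the change was even.

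The make-up of the positions was less limited by that bound, because the 7 fractions were compared by a permutation F test. It called 0 of 20 chromosomes (0%) from each viewpoint and 0 of 20 (0%) for the mean of the viewpoints, with 1, 1, 0 and 1 chromosomes at an unadjusted p below 0.05. With 2 libraries per fraction, these counts of 0 do not show either that the change was even. For the mean of the viewpoints, the exact test of S against G1 needed 5 of 20 chromosomes at its smallest p. For the mean of the viewpoints, the log2 ratio of S to G1 of a chromosome's share ran from -0.17 ± 0.08 (SE) for chromosome 18 to 0.25 ± 0.12 for chromosome 12. Chromosome 12 held 4.43% ± 0.49 (SD, n = 2) in G1 and 5.27% ± 0.51 (n = 12) in S, with an exact permutation p of 0.044 that did not pass adjustment (0.678). Without Outside G1 replicate 1, 1 chromosome was called for the mean of the viewpoints. That G1 unit was then the mean of Proximal and Distal alone, so the fit mixed a difference between viewpoints into the fractions.

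Early and late S phase were compared in the same way. The share of the library was lower in S4 to S6 than in S1 to S3 for 17 of 20 chromosomes from Proximal, 19 from Distal and 20 from Outside, with median ratios of 0.886, 0.83 and 0.849. No chromosome passed on its own (exact permutation test, 3, 8 and 7 at an unadjusted p below 0.05), and none passed for its share of the make-up (1, 0 and 2 unadjusted). Chromosome 20 had the lowest ratios from Proximal and Outside, at 0.696 and 0.643, and stood at 0.841 from Distal.

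**Figure D5:**
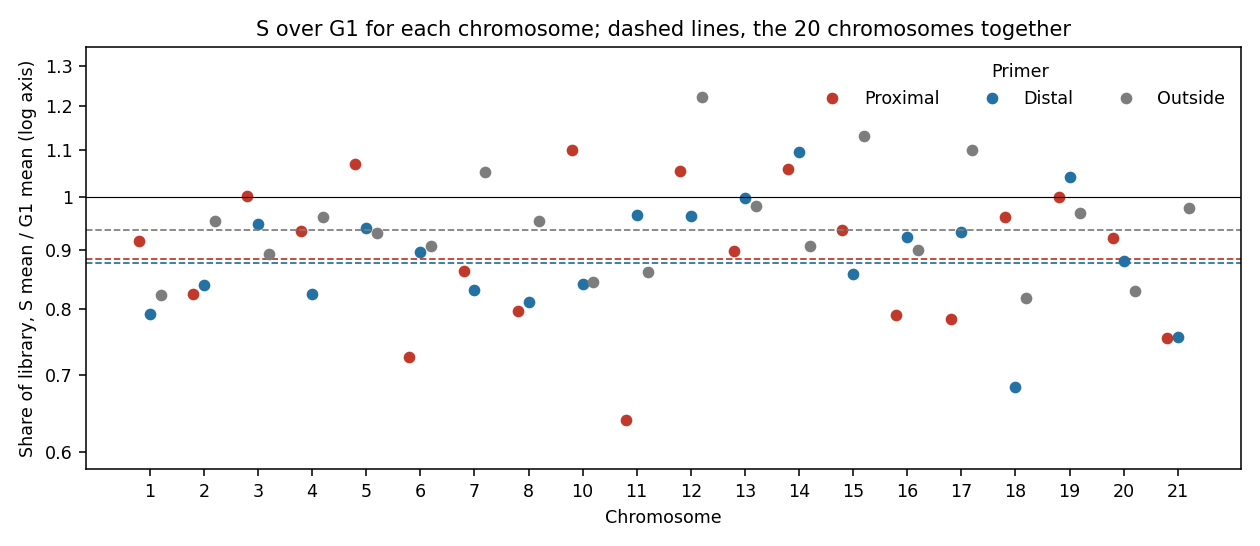
Ratio of the S mean (12 libraries) to the G1 mean (2 libraries) of each chromosome's share of the library (vertical axis, log scale) by chromosome (horizontal axis). Dashed lines are the 20 chromosomes together, at 0.883 for Proximal, 0.878 for Distal and 0.936 for Outside. Values scatter on both sides of these lines, from 0.64 to 1.22, and none passed the exact permutation test after adjustment.

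At the level of 5 Mb bins, limma called 0 of 512 bins (0%) between S and G1 from each viewpoint and for all 42 libraries together, with 16, 20, 14 and 19 bins at an unadjusted p below 0.05. A quasi-Poisson model called 1 from Distal. The standard error of a bin's log2 change was 0.34 at the median with all libraries together and 0.55 to 0.61 within a viewpoint, so only large changes of single bins could have been seen. The smallest p over all libraries was that of chr14:70000001-75000000, at a log2 change of 1.16 ± 0.34 (SE, limma, adjusted p = 0.407), where the 2 G1 libraries held 2, 0 and 2 positions from Proximal, Distal and Outside and the 12 S libraries 35, 33 and 17. Between early and late S phase 0 of 512 bins (0%) were called as well, with 26, 25, 30 and 29 unadjusted. The smallest adjusted p was 0.0552, for chr20:20000001-25000000 from Outside (log2 -1.65 ± 0.43 SE, limma).

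The change from G1 to S was also compared between viewpoints. Tested within fraction and replicate number, 0 of 3 pairs of viewpoints differed in the change of the total share, and 0 of 60 combinations of pair and chromosome in the change of a chromosome's share (exact permutation test, adjusted, 0 and 3 at an unadjusted p below 0.05). As above, 14 of 60 tests would have had to reach the smallest p, so the count over chromosomes does not show that the viewpoints changed alike.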

How the data were processed

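Per the labels' protocols, fixed cells were digested with DpnII, ligated in situ and sonicated, and ligations with a viewpoint were copied from a biotinylated primer. The submitters' processing notes name hg19, cutadapt and bedtools. The aligner is not given in the sources used here. Each line of the deposited tables is a contact position, with no value beside it. The adapter carried random molecular barcodes, but whether repeated lines are separate molecules is not given in the sources used here. Duplicate positions within a library were removed, except where lines are named. The members and lists were chosen with earlier results of these data known. Groups and replicate numbers came from the labels. Named bins were those called from all 3 viewpoints (the first 10 by mean log2), those called between fractions or viewpoints, or else the 3 with the smallest p, and the AAVS1 bin. For contrasts of fractions only the leading such bin is printed. Bins needed a mean of 1 position per library. Sign-flip tests, F tests and tests between fractions permuted libraries. Bins were fitted with limma 3.58.1 (eBayes with trend, pseudocount 1) in R 4.3.3, the rest in Python 3.11.15 with numpy 2.4.6. On simulated data the bin tests of preference and of viewpoints gave somewhat more false calls than the nominal 5%, and the test of S against G1 recovered few true changes. Chromosomes 9, 22, X, Y and M were not analysed here, and hg19 sequence and genes were not used.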

Additional observations from a re-analysis of the deposited data

Results flagged for a closer look

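Chromosomes 22, X, Y and M, which stand outside the comparisons above, held 3592 distinct positions summed over libraries. They are listed because this is a signal in data that the comparisons did not use. Groups held 2 libraries, so single libraries were not tested as outliers. The tests of a difference between viewpoints in the change from G1 to S gave no further result.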

How the results depend on the processing

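Of 274 values recomputed under other settings with all libraries, 236 kept their direction and side of the threshold (counts: stayed within 1.5 times). The cause of the changes below was not tested. For S against G1, the difference in points turned to 6.69 (Proximal), 8.55 (Distal) and 8.24 (Outside) against positions beyond 2 Mb and to 4.06, 6.23 and 3.84 with each 10 kb stretch once, and Proximal passed by lines (-1.44) and without Proximal S6 replicate 2 (range -2.06 to -1.71). S4 to S6 against S1 to S3 no longer passed beyond 2 Mb (-0.85, -0.68 and -3.04), from Proximal by lines (-0.57), and with stretches once from Proximal (-2.01) and Distal (-2.24). Preferred bins, 66, 66 and 95 in all, numbered 15, 5 and 31 with a mean of 2 positions. That setting measured the excess from the mean of the denser bins left. Preferred bins numbered 120 from Proximal with 2 Mb bins and 51 from Outside with 10 Mb bins. Between Proximal and Distal, 2 bins differed by lines, by scaling to all positions and by a quasi-Poisson model, and 0 with stretches once. Between Proximal and Outside the counts were 10 by lines, 2 with stretches once, 8 with 10 Mb bins, 16 with 2 Mb bins, 3 with a mean of 2, 15 scaled to all positions, 8 without a trend and 2 with a quasi-Poisson model. Between Distal and Outside they were 0 without recurrent positions and 1 with 10 Mb bins, 2 Mb bins or a pseudocount of 0.5. A quasi-Poisson model called 1 Distal bin between S and G1. From Outside 1 late bin was called without recurrent positions, with stretches once or scaled to all positions.

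Leaving out 1 library at a time gave 1 to 2 bins between Proximal and Distal, 1 to 9 between Proximal and Outside and 0 to 3 between Distal and Outside. The counts moved by over 1.5 times without any of 6, 12 and 12 libraries, so these lists of bins rest on single libraries; the lowest Proximal and Outside count, 1, came without Outside S4 replicate 2 and the highest, 9, without Proximal S6 replicate 1. Late bins numbered 0 to 1 from Proximal (1 without Proximal S1 replicate 1 or S2 replicate 1) and 0 to 1 from Outside (1 without Outside S1 replicate 2), and evenness calls for the mean of the viewpoints 0 to 1. In these evenness fits the unit that lost a library was the mean of the other viewpoints alone. Most tests did not take the replicate numbers as pairs, because not every correlation of same-numbered deviations in chromosome shares was over 0.1. Medians were 0.13, -0.06 and 0.03 between fractions of a viewpoint and 0.086, 0.18 and 0.10 between viewpoints in the same fraction. Same-numbered libraries were matched for the counts of pairs of libraries and the mean of the viewpoints. They were also matched where the change from G1 to S was compared between viewpoints. The correlations did not cover the total share. Replicate 1 held the larger total share in 6, 6 and 4 of 6 S fractions. With a replicate block, the chromosomes that differed between viewpoints numbered 9 in place of 10 (without chromosome 2), preferred bins 66, 65 and 91, and no total share changed its side (S4 to S6, adjusted exact permutation p = 0.005 each). Depth limits the bins, at 2.20 positions per bin and library.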

Other observations

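The number of 5 Mb bins called between viewpoints moved by over 1.5 times when any of the following libraries was left out. Between Proximal and Distal, where 1 bin was called, the count was 2 without Proximal S2 replicate 1, S3 replicate 2, S4 replicate 2 or S5 replicate 2, or without Distal G1 replicate 2 or S1 replicate 1. Between Proximal and Outside, where 5 were called, it was 9 without Proximal S6 replicate 1 and 8 without Outside S1 replicate 1. It was 3 without Proximal S3 replicate 1 or S5 replicate 1, or Outside G1 replicate 1 or S1 replicate 2. It was 2 without Proximal S2 replicate 1 or S3 replicate 2, or Outside S2 replicate 2, S5 replicate 1 or S6 replicate 2, and 1 without Outside S4 replicate 2. Between Distal and Outside, where 3 were called, it was 1 without Distal S3 replicate 1 or S3 replicate 2, or Outside S1 replicate 2, S3 replicate 2, S4 replicate 1 or S6 replicate 2. It was 0 without Distal G1 replicate 2, S4 replicate 1 or S4 replicate 2, or Outside G1 replicate 2, S2 replicate 2 or S4 replicate 2.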
